A study of Mus musculus with 4 samples.

Results

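The 40 genes described here encode enzymes of sterol synthesis and of fatty acid synthesis, with the regulators that control both. They were chosen by symbol for their place in these pathways, and all 40 were found among the 55421 genes listed in each library. They comprised 18 enzymes of the sterol branch, 5 sterol regulators, the sterol carrier gene Stard4, 2 genes that supply acetyl-CoA, and 14 enzymes of the fatty acid branch. RNA had been taken from mouse astrocytes obtained in culture from C57BL/6J neural stem cells by differentiation in a medium with serum, which both groups received. The control group was infected with a lentivirus that carried a control short hairpin RNA (shRNA), and the other group with a lentivirus that carried an shRNA against Phf8, a histone demethylase gene. Each group had 2 libraries, made from ribosomal RNA-depleted total RNA. The labels call them biological replicates without saying whether they came from separate cultures, so each p-value reflects no more than how far these samples spread, and that spread may be technical. RNA came from whole cultures, in which fewer cells of a type and less RNA per cell cannot be told apart.

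Sterols and fatty acids are both built from cytosolic acetyl-CoA, which Acly makes from citrate and Acss2 from acetate. In the sterol branch, acetyl-CoA is converted through mevalonate to isoprenoids, these to squalene and lanosterol, and lanosterol to cholesterol. In the fatty acid branch, acetyl-CoA is carboxylated, joined to palmitate by fatty acid synthase, and then lengthened by elongases (Elovl genes) and given double bonds by desaturases (Scd and Fads genes). Both branches are controlled by the sterol regulatory element binding proteins (SREBPs), the products of Srebf1 and Srebf2. These are held in the endoplasmic reticulum by the Insig proteins when sterol is plentiful, and escorted out of it by Scap when sterol is scarce. Astrocytes are a main source of cholesterol in the brain, where little arrives from the blood.

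Sterol regulatory elements lie close to the start of many of these genes, often beside a CCAAT box, which the factor NF-Y binds, and a GC box, which SP1 binds. Promoters of 33 of the 40 genes were found in the RefSeq promoter table of the GRCm38.p6 build (the build of the files, mm10), each from 250 bases before to 50 bases after a gene start. Scd1, Scd2, Fdps, Fdft1, Fads1, Sqle and Stard4 had no entry. A match to a motif is a description of the letters and not evidence of binding. The core element TCACCCCA, searched on both strands, was found in Hmgcs1 and Srebf2, and the relaxed form TCACNCCA, which includes the core form, also in Msmo1. These 3 matches are shown with 30 bases on each side, 5′ to 3′ on the strand of the gene and with the element in capitals. They lie at chr13:119690184-119690251 on the plus strand (Hmgcs1), chr15:82147077-82147144 on the plus strand (Srebf2) and chr8:64733718-64733785 on the minus strand (Msmo1).
Hmgcs1: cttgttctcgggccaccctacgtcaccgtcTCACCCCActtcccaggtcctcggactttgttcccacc
Srebf2: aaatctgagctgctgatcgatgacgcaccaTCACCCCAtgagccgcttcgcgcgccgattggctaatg
Msmo1: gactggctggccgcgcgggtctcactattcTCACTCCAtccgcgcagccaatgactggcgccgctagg

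The relaxed element was present in 4.41% of the promoters of 11010 protein-coding genes tested, in 2 of 15 sterol branch promoters and in 0 of 11 fatty acid branch promoters. The CCAAT box separated the branches more. It was found, as CCAAT on either strand, in 14 of 15 sterol branch genes (93.3%), in 6 of 11 fatty acid branch genes (54.5%) and in 42.8% of the protein-coding genes tested. The share was 44.1% among protein-coding genes called lower with Phf8 shRNA and 41.7% among those called higher. The GC box GGGCGG was found in 14 of 15 sterol branch genes, 6 of 11 fatty acid branch genes and 67.5% of the protein-coding genes tested. The E-box CACGTG was found in 3 of 15 sterol branch genes, 2 of 11 fatty acid branch genes and 11.2% of the protein-coding genes tested. Genes with several starts were counted once, with a match at any start. The promoters of Acaca and Acacb lie 65766 and 18983 bases from the deposited gene starts, so they may not be those used in these cells. Both count among the 11 fatty acid branch genes. Acaca has neither a CCAAT nor a GC box there, and Acacb has a CCAAT box but no GC box.

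For 7 genes the results turn on, the 150 bases before the gene start nearest to the deposited one are shown, with CCAAT and GC boxes on either strand in capitals. Ebp, Nsdhl and Mvk were lower with Phf8 shRNA, as was Fads3. Dhcr7, Insig1 and Elovl7 were higher. The windows lie at chrX:8193513-8193662 (minus strand, Ebp), chrX:72918371-72918520 (plus, Nsdhl), chr5:114444119-114444268 (plus, Mvk), chr7:143823017-143823166 (plus, Dhcr7), chr5:28071262-28071411 (plus, Insig1), chr13:108214254-108214403 (plus, Elovl7) and chr19:10041398-10041547 (plus, Fads3).
Ebp: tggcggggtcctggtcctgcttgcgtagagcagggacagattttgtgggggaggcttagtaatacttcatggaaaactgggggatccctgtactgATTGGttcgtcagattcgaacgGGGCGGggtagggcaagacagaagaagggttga
Nsdhl: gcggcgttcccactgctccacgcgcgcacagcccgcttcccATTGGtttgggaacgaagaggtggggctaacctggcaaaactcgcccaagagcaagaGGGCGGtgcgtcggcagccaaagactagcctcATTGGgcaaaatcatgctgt
Mvk: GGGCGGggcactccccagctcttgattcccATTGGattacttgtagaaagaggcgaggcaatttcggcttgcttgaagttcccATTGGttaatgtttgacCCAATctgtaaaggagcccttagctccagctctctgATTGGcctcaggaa
Dhcr7: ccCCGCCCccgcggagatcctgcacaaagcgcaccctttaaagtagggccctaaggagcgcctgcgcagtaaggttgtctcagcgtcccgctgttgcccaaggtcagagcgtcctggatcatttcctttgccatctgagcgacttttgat
Insig1: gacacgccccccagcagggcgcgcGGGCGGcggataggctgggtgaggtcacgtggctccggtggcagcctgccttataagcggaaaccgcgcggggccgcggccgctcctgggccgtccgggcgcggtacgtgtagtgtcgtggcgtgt
Elovl7: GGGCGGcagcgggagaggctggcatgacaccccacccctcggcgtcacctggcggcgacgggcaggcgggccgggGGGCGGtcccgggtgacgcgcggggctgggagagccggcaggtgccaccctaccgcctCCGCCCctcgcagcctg
Fads3: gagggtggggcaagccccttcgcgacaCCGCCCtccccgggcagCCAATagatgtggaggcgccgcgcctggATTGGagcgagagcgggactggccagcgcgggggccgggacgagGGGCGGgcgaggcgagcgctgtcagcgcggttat

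In these windows Mvk held 4 CCAAT boxes, Nsdhl and Fads3 held 2 each, Ebp held 1, and Dhcr7, Insig1 and Elovl7 held 0. These windows were picked with the direction of change known. Among the other members with a window, Elovl2, Elovl4 and Fads2, which were higher, also held 0 CCAAT boxes. Of those that were lower, Hmgcs1, Pmvk, Cyp51, Acss2 and Elovl1 held 1 each, Idi1, Msmo1 and Hsd17b7 held 2 each, and Insig2 held 3. Other members went against this order, and a link between boxes and direction was not tested. In the same 150-base window, Srebf1, Acly and Scap, which were lower with Phf8 shRNA, held 0 CCAAT boxes, while Fasn held 3 and Mvd and Elovl5 held 2 each without a called change. The larger 300-base windows of Insig1 and Elovl4 do hold a CCAAT box, and those of Elovl2, Elovl7 and Fads2 do not. Dhcr7 has 3 such windows, and a CCAAT box lies in at least 1 of them.

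Reads assigned to genes ranged from 36839530 to 44724759 per library. Levels are given as CPM, the reads of a gene per 1e6 reads after TMM scaling (trimmed mean of M-values), as mean ± SD of n = 2 libraries, and changes as log2 fold change of Phf8 shRNA over control shRNA with its standard error (SE). A gene was called when its adjusted p was under 0.05 in the quasi-likelihood test of edgeR, adjusted by Benjamini-Hochberg over all 21042 genes tested. Phf8 itself stood at 53.3 and 53.0 CPM in the control and at 44.3 and 42.3 CPM in the Phf8 shRNA libraries, and decreased by 18.5% (edgeR adjusted p = 1.72e-06). Of the genes tested, 52.1% were called, 24.8% higher and 27.3% lower, and in 73.9% the libraries of both groups did not overlap. The split of the calls depended on the scaling, with 6640 higher and 4811 lower genes under upper-quartile scaling against 5225 and 5740 under TMM. The share of reads from both mitochondrial ribosomal RNAs ran from 21.2% to 22.5% in the control and from 27.8% to 28.2% in the Phf8 shRNA libraries, and its part in the results was not tested.

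Sterol branch enzymes were mostly lower with Phf8 shRNA, whereas fatty acid branch enzymes went both ways. Of the 18 sterol branch enzymes, 12 fell (66.7%, against 27.3% of all genes tested), 1 rose and 5 did not pass. Of the 14 fatty acid branch enzymes, 5 rose (35.7%, against 24.8%), 3 fell (21.4%, against 27.3%) and 6 did not pass. The median log2 fold change was -0.32 in the sterol branch, 0.06 in the fatty acid branch and 0.01 over all genes tested. Sterol branch values ran from -1.28 for Ebp to 0.19 for Dhcr7, and fatty acid branch values from -1.26 for Fads3 to 0.88 for Elovl7. Most changes were small, with 1 gene of each branch, Ebp and Fads3, at least 2-fold lower (8.71% of all genes tested were), and 0 of the 40 genes at least 2-fold higher (5.5% of all genes tested were). The difference between the branches is given as counts and medians and was not tested.

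The spread between these libraries was small, and the calls rest on it. A biological coefficient of variation of 0.2 was also set, in edgeR's likelihood ratio test. With it, 3 sterol enzymes fell (Ebp, Sqle and Fdft1, 9.71% of all genes tested being lower). Fads3 fell and Elovl7 rose (6% of all genes tested being higher). Phf8 itself, at a log2 fold change of -0.30, did not pass in that test (edgeR likelihood ratio test, adjusted p = 0.639). Under upper-quartile scaling 11 sterol branch enzymes were lower and 4 higher (22.9% and 31.6% of all genes tested), and with the library size alone 13 were lower and 1 higher.

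**Figure D1:**
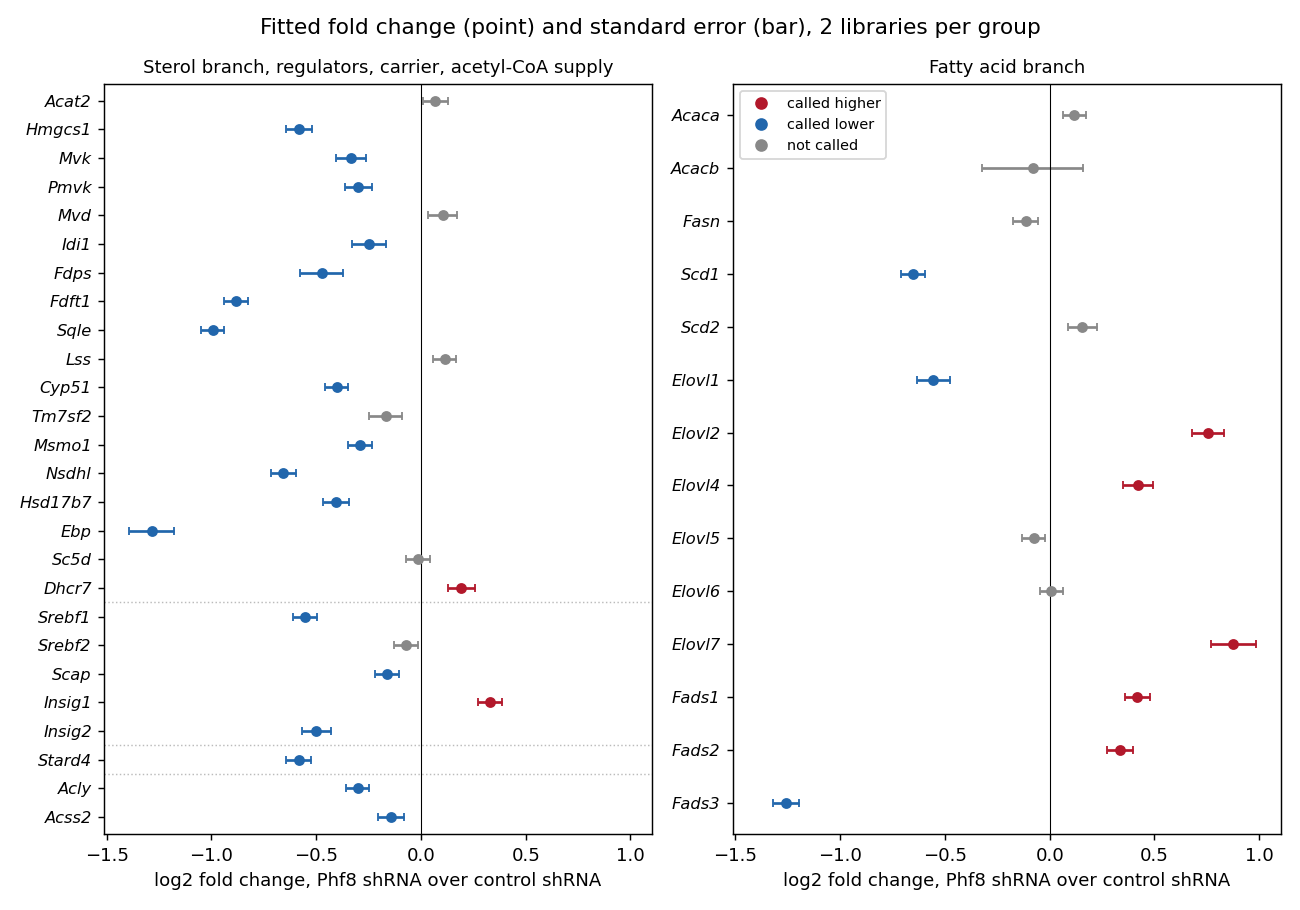
Fitted log2 fold change of Phf8 shRNA over control shRNA (point) with its standard error (bar) for the 40 genes, in pathway order from top to bottom; dotted lines part the sterol branch from the regulators, the carrier Stard4 and the acetyl-CoA supply genes. Blue points were called lower, red points higher and grey points were not called: 12 of 18 sterol branch enzymes are blue, while the fatty acid branch holds 5 red and 3 blue points.

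**Figure D2:**
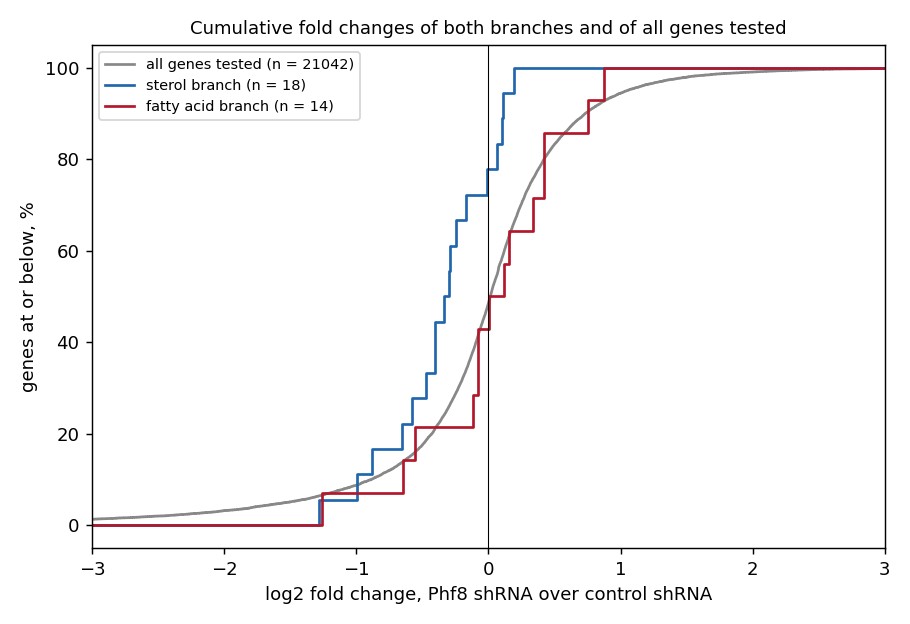
Share of genes (vertical axis, percent) with a log2 fold change at or below the value on the horizontal axis, drawn from -3 to 3, for 18 sterol branch enzymes, 14 fatty acid branch enzymes and all 21042 genes tested. The sterol curve lies to the left, with its median at -0.32, while the fatty acid curve crosses the curve of all genes, with medians of 0.06 and 0.01.

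The first steps, which lead from acetyl-CoA to mevalonate and its activated form, were lower at 3 of 5 enzymes. Hmgcs1, the cytosolic HMG-CoA synthase that commits acetyl units to mevalonate, stood at 962 and 954 CPM in the control libraries and at 693 and 587 CPM in the Phf8 shRNA libraries. Both Phf8 shRNA libraries lay below both controls, and the level decreased by 33.2% (log2 fold change -0.58 ± 0.06 SE, edgeR adjusted p = 2.73e-20). Hmgcs1 shares 12.1% of its exonic length with Gm48342 on the opposite strand, which also fell (1.64-fold), and whether reads were counted by strand is not stated in these sources. Mvk and Pmvk, the kinases that phosphorylate mevalonate and phosphomevalonate, fell by 20.6% and 18.7%. Mvd, the decarboxylase that follows them, stood at 25.7 and 24.0 CPM in the control and 27.2 and 26.2 CPM in the Phf8 shRNA libraries, and did not pass (edgeR adjusted p = 0.198). Acat2, the thiolase of the first condensation, stood at 44.6 ± 1.31 and 46.6 ± 3.67 CPM and did not pass, with overlapping groups. Its level is uncertain, since 39.1% of its 50-base transcript words also occur in Acat3, a neighbouring paralog.

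Of the 5 enzymes from the isoprenoids to lanosterol, 4 fell and 1 did not pass, and Sqle and Fdft1 had the largest decreases of the sterol branch after Ebp. Sqle, the squalene epoxidase and a rate-limiting step of the pathway, stood at 280.3 and 279.7 CPM in the control and at 145 and 136 CPM in the Phf8 shRNA libraries. Each Phf8 shRNA library thus held about the same reduced level, and the log2 fold change was -0.99 ± 0.06 SE (edgeR adjusted p = 1.03e-66). Fdft1, the squalene synthase that takes farnesyl diphosphate into the sterol branch, stood at 169.6 and 162 CPM in the control and at 95.6 and 83.8 CPM in the Phf8 shRNA libraries, a log2 fold change of -0.88 ± 0.06 SE. The exons of Fdft1 overlap those of Ctsb, on the opposite strand, over 18.3% of their length, and Ctsb fell 2.86-fold. Its part in the Fdft1 value was not tested.

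Idi1, the isomerase that makes the reactive isoprene unit, fell from 15.1 and 16.5 CPM to 13.9 and 12.7 CPM. That call was lost in DESeq2 (adjusted p = 0.0748), under upper-quartile scaling (edgeR adjusted p = 0.0722), without control replicate 2 (0.158) and without Phf8 shRNA replicate 2 (0.0931). Fdps, the farnesyl diphosphate synthase, fell by 28.0% at a low listed level of 8.72 ± 0.160 CPM in the control. The exons of Fdps coincide with those of Gm43738, on the same strand, over 26.7% of their length, so its level is uncertain. Lss, the cyclase that forms lanosterol, stood at 94.3 and 91.3 CPM in the control and 107 and 93.0 CPM in the Phf8 shRNA libraries, with overlapping groups, and did not pass. It was called higher without Phf8 shRNA replicate 2 (edgeR adjusted p = 5.96e-04).

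After lanosterol, 5 of 8 enzymes fell, 1 rose and 2 did not pass. Ebp, the sterol isomerase that moves the ring double bond, stood at 11.0 and 10.6 CPM in the control and at 4.49 and 4.39 CPM in the Phf8 shRNA libraries. This was 2.44-fold lower (log2 fold change -1.28 ± 0.11 SE, edgeR adjusted p = 5.96e-32), with Phf8 shRNA libraries close to each other. Nsdhl, which with Hsd17b7 completes the removal of the methyl groups at carbon 4, stood at 55.1 and 53.3 CPM in the control and at 37.4 and 31.2 CPM in the Phf8 shRNA libraries. Both Phf8 shRNA values were again below both controls, and the mean decreased by 36.6%. Ebp and Nsdhl lie on chromosome X, from 8185329 to 8193512 and from 72918557 to 72958514 in mm10, as Phf8 does.

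Cyp51, the lanosterol demethylase, fell by 24.3%, Hsd17b7, a sterol ketone reductase, by 24.5%, and Msmo1, the methyl sterol oxidase, by 18.2%. Sc5d, the desaturase that follows Ebp, stood at 143.3 ± 0.607 CPM in the control and 142 ± 9.88 CPM in the Phf8 shRNA group, a log2 fold change of -0.01 ± 0.06 SE. Tm7sf2, a sterol reductase that acts after Cyp51, did not pass (log2 fold change -0.17 ± 0.08 SE). Its level is uncertain, since 12.1% of its exonic length is shared with Vps51 on the same strand, which fell 1.14-fold. Its Phf8 shRNA libraries stood at 16.5 and 13.6 CPM against 17.0 CPM in each control. It was called lower without Phf8 shRNA replicate 1 (edgeR adjusted p = 0.00294).

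Dhcr7, the last reductase on one route to cholesterol, was the 1 sterol branch enzyme that rose. It stood at 29.7 and 29.3 CPM in the control and at 34.5 and 33.0 CPM in the Phf8 shRNA libraries, an increase by 14.3% with groups that did not overlap. The call was lost in DESeq2 (adjusted p = 0.058) and without Phf8 shRNA replicate 1 (edgeR adjusted p = 0.0703). Neighbouring steps thus differed: Ebp fell 2.44-fold, Sc5d was near 0 on the log2 scale and Dhcr7 rose.

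The Phf8 shRNA libraries differed from each other in the sterol branch. All 18 sterol branch enzymes stood lower in Phf8 shRNA replicate 2 than in replicate 1, against 10 of 14 fatty acid branch enzymes and 11275 of the 21042 genes tested. Relative to the control mean, the median log2 ratio of the sterol branch was -0.25 in Phf8 shRNA replicate 1 and -0.43 in replicate 2, and 0.0084 and -0.0084 in the control libraries. The sum over the 18 enzymes was 2424 and 2407 CPM in the control and 1860 and 1625 CPM in the Phf8 shRNA libraries. For Hmgcs1, Nsdhl, Msmo1 and Cyp51 the gap between both Phf8 shRNA libraries is visible in the plot of levels by library, while Ebp and Fdps stood at nearly the same level in both. The enzymes share the libraries, so their common order is 1 observation and not 18.

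**Figure D3:**
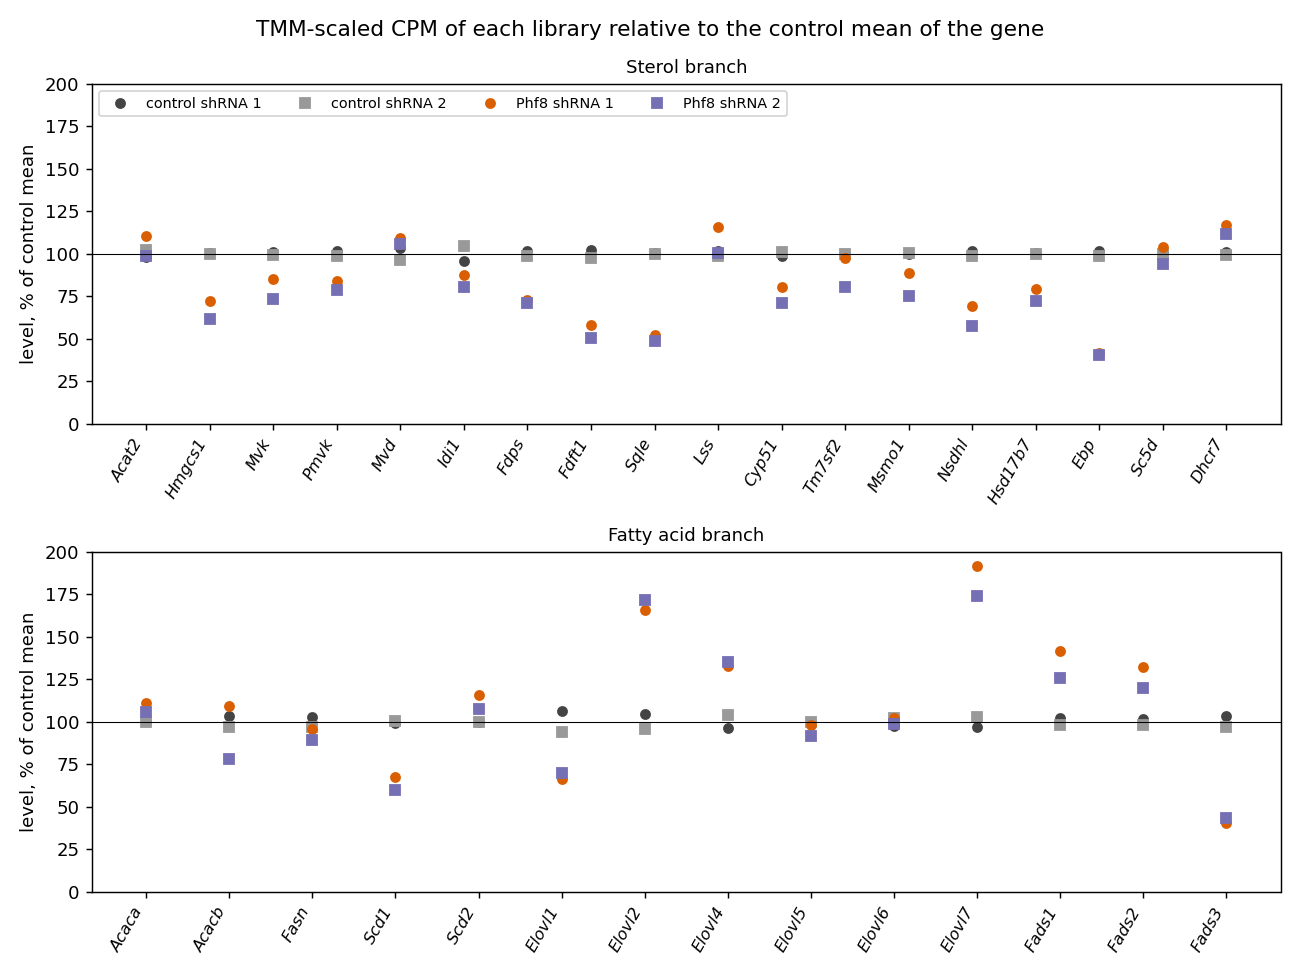
TMM-scaled CPM of each of the 4 libraries as a percentage of the control mean of that gene (vertical axis, from 0), for the sterol branch (top) and the fatty acid branch (bottom). All 18 sterol genes have the square of Phf8 shRNA replicate 2 below the circle of replicate 1, and the largest departures are Ebp, Sqle and Fdft1 at the top and Fads3, Elovl7 and Elovl2 at the bottom.

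The regulators of the branch were not all lower. Srebf1, whose product drives mainly fatty acid genes, stood at 182 and 173 CPM in the control and at 121 and 122 CPM in the Phf8 shRNA libraries. It fell by 31.8% (log2 fold change -0.55 ± 0.06 SE, edgeR adjusted p = 5.65e-22), with groups well apart. Srebf2, whose product drives mainly sterol genes, stood at 166 ± 9.25 CPM in the control and 158 ± 6.00 CPM in the Phf8 shRNA group, with overlapping groups, and did not pass (edgeR adjusted p = 0.291). The Srebf1 gene encodes 2 main isoforms with separate starts, which counts per gene do not part.

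Insig1 and Insig2, whose products retain the SREBP and Scap complex, moved in opposite directions. Insig1 stood at 138 and 137 CPM in the control and at 183 and 163 CPM in the Phf8 shRNA libraries, an increase by 25.7% (log2 fold change 0.33 ± 0.06 SE, edgeR adjusted p = 1.58e-08). Insig2 stood at 26.7 and 26.6 CPM in the control and at 18.3 and 19.4 CPM in the Phf8 shRNA libraries, and decreased by 29.3%. Insig1 is itself a well-known target gene of the SREBPs, as most of the sterol enzymes are. Scap fell by 10.6%, and its call was lost under upper-quartile scaling (edgeR adjusted p = 0.157), without control replicate 1 (0.131) and without Phf8 shRNA replicate 2 (0.0838). Stard4, a cytosolic sterol carrier that is controlled with the sterol enzymes, fell from 55.5 and 57.8 CPM to 40.7 and 34.7 CPM, a log2 fold change of -0.58 ± 0.06 SE.

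Both genes of acetyl-CoA supply fell slightly. Acly stood at 249 and 239 CPM in the control and at 203 and 193 CPM in the Phf8 shRNA libraries, and decreased by 18.9% (edgeR adjusted p = 3.65e-07). Acss2 fell by 9.39%, and its call (edgeR adjusted p = 0.0426) was lost in DESeq2 (adjusted p = 0.17), under upper-quartile scaling, without either control replicate and without Phf8 shRNA replicate 2. With both supply genes counted in the fatty acid branch, 5 rose and 5 fell of 16, with a median of -0.03.

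The core of fatty acid synthesis did not pass the test. Fasn, the fatty acid synthase, stood at 654 and 617 CPM in the control and at 607 and 568 CPM in the Phf8 shRNA libraries. The groups lay next to each other without overlapping, and the log2 fold change was -0.11 ± 0.06 SE (edgeR adjusted p = 0.101). Fasn was called lower with limma-voom (adjusted p = 0.0388), with the library size alone, with no low-count filter and without Phf8 shRNA replicate 1. Acaca, the acetyl-CoA carboxylase of the cytosol, had a log2 fold change of 0.12 ± 0.06 SE (edgeR adjusted p = 0.062). Acaca was called higher under upper-quartile scaling (edgeR adjusted p = 1.27e-04), with the filter of at least 1 CPM in 2 libraries (0.0175) and without Phf8 shRNA replicate 2 (0.0113). The level of Acaca is less certain than that of Fasn, because 29.2% of its 50-base words also occur in Gm5182. Acacb, the carboxylase at mitochondria, was nearly silent at 1.19 ± 0.0539 CPM in the control, with 100 control reads and 90 Phf8 shRNA reads.

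The stearoyl-CoA desaturases, which make monounsaturated fatty acids, differed from each other. Scd2, the main form of the brain, stood at 3925 and 3936 CPM in the control and at 4545 and 4216 CPM in the Phf8 shRNA libraries. Both Phf8 shRNA values were above both controls, but the log2 fold change of 0.16 ± 0.07 SE missed the threshold (edgeR adjusted p = 0.0525). It was called higher in DESeq2 (adjusted p = 0.00928) and limma-voom (0.00203). Scd1 stood at 410.2 and 416 CPM in the control and at 280 and 246 CPM in the Phf8 shRNA libraries, and decreased by 36.3% (log2 fold change -0.65 ± 0.06 SE, edgeR adjusted p = 3.64e-28). The 2 genes lie 87.6 kb apart on chromosome 19, and 4.56% of the 50-base words of Scd1 and 3.97% of those of Scd2 occur in transcripts of another gene.

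The Fads genes, which make polyunsaturated fatty acids, form another cluster on chromosome 19 and also parted. Fads1, the delta-5 desaturase, stood at 582 and 558 CPM in the control and at 808 and 715 CPM in the Phf8 shRNA libraries, an increase by 33.7% (log2 fold change 0.42 ± 0.06 SE, edgeR adjusted p = 2.62e-11). Fads2, the delta-6 desaturase that acts before it, stood at 822 and 793 CPM in the control and at 1068 and 971 CPM in the Phf8 shRNA libraries, an increase by 26.2%. Both enzymes of the polyunsaturated route were thus higher in both Phf8 shRNA libraries than in either control. Fads3 (chromosome 19, 10041569 to 10060110), a relative with a more restricted desaturase activity, stood at 61.4 and 57.5 CPM in the control and at 24.1 and 25.7 CPM in the Phf8 shRNA libraries. This was 2.39-fold lower (log2 fold change -1.26 ± 0.06 SE, edgeR adjusted p = 2.6e-90), though Fads3 ends 2.65 kb from Fads2, and the Fads genes share under 1% of their 50-base words with any other gene.

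Of the 6 elongases, 3 rose, 1 fell and 2 did not pass. Elovl2, which lengthens polyunsaturated fatty acids on the route to docosahexaenoic acid, stood at 13.8 and 12.7 CPM in the control and at 22.0 and 22.8 CPM in the Phf8 shRNA libraries, 1.69-fold higher (log2 fold change 0.75 ± 0.08 SE, edgeR adjusted p = 8.21e-22). Elovl4, which makes very long chains, stood at 18.5 and 19.9 CPM in the control and at 25.6 and 26.0 CPM in the Phf8 shRNA libraries, an increase by 34.0%. Elovl7 stood at 4.92 and 5.21 CPM in the control and at 9.71 and 8.83 CPM in the Phf8 shRNA libraries, 1.83-fold higher.

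For these 3 elongases the groups were apart by more than the spread within either. Elovl1, which lengthens saturated and monounsaturated chains, fell from 19.4 and 17.2 CPM to 12.1 and 12.9 CPM, a log2 fold change of -0.55 ± 0.08 SE. Elovl5, which lengthens the products of the delta-6 desaturase, stood at 138 ± 0.264 CPM in the control and 131 ± 6.33 CPM in the Phf8 shRNA group and did not pass. Elovl6, which takes palmitate to stearate, stood at 74.8 ± 2.37 and 75.2 ± 1.94 CPM, with overlapping groups and a log2 fold change of 0.01 ± 0.06 SE. The higher genes of the fatty acid branch were thus Fads1, Fads2, Elovl2, Elovl4 and Elovl7, and the lower ones Scd1, Elovl1 and Fads3.

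Levels between genes were compared per kilobase of exon (CPM per kb), since longer transcripts give more reads. In the control the highest of the 40 was Scd2 at 719 ± 1.43 CPM per kb, followed by Fads2 at 245 ± 6.23, Hmgcs1 at 209 ± 1.30, Fads1 at 118 ± 3.45 and Scd1 at 84.4 ± 0.782 CPM per kb. The neighbours in this order were apart by more than their SD. Within the sterol branch, Sqle at 50.5 ± 0.0780, Cyp51 at 47.2 ± 0.813 and Msmo1 at 42.2 ± 0.238 CPM per kb came after Hmgcs1. With Phf8 shRNA, Sqle stood at 25.3 CPM per kb, below Cyp51 at 35.7 and Msmo1 at 34.5 CPM per kb, so that the order of these 3 genes turned. Scd2 stood above 99.9% of the genes tested in level per kilobase, and Acacb, the lowest member, above 4.98%.

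**Figure D4:**
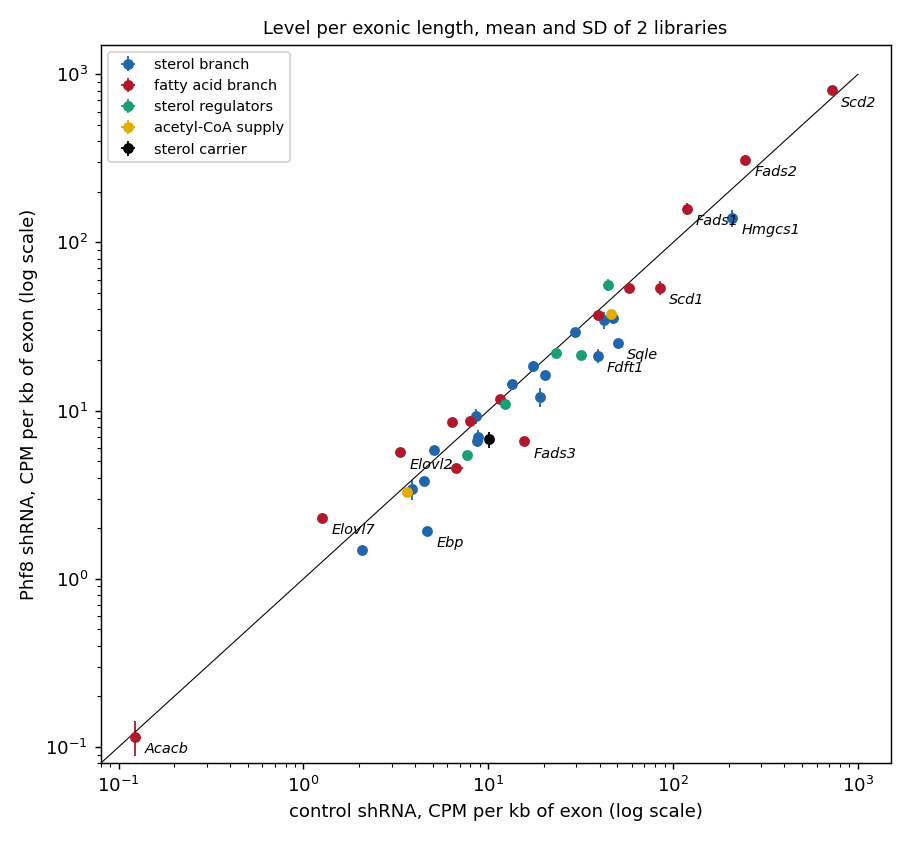
Level per exonic length in the control (horizontal axis) and with Phf8 shRNA (vertical axis), in CPM per kb on log scales, as mean and SD of 2 libraries per group; the line marks equal levels. Sterol branch points such as Hmgcs1, Sqle, Fdft1 and Ebp lie below the line, Fads1, Fads2, Elovl2 and Elovl7 above it, and Scd1 and Fads3 below it.

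Genes around the 2 branches were followed by pathway lists, whose counts are to be read beside the 24.8% of all genes tested that were higher and the 27.3% that were lower. Among 10 genes of SREBP processing and sterol-sensing degradation, 3 rose (30%) and 4 fell (40%), with a median log2 fold change of 0.01, that of all genes tested. Mbtps1, the protease that makes the first cut in SREBPs, fell from 97.6 ± 4.19 to 73.7 ± 0.961 CPM, while Mbtps2, the protease of the next cut, rose from 23.5 ± 1.48 to 29.6 ± 2.31 CPM. The level of Mbtps2 is uncertain, since 28.4% of its exonic length is shared with Yy2 on the same strand. The sterol-sensing adaptor genes Erlin1 and Erlin2 fell 1.40-fold and 1.47-fold. Of 11 enzymes that use isoprenoids outside the sterol branch, 2 fell (Rabggta 1.37-fold and Pggt1b 1.21-fold, both subunits of prenyl transferases) and 9 did not pass, with a median of -0.06.

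Among 14 genes that use, oxidise or export sterol, 12 had enough reads to be tested. Of these 2 rose, 3 fell (Abca1, Nr1h3 and Npc2) and 7 did not pass, with a median of 0.00. Abca1, the sterol exporter, fell 1.39-fold from 987 ± 3.60 to 711 ± 2.30 CPM. Cyp7b1, an oxysterol hydroxylase, rose 1.71-fold. Abcg1, another exporter, rose 2.13-fold at a low level of 0.586 ± 0.174 CPM in the control. Nr1h3, which encodes the sterol-sensing receptor LXR alpha, fell 1.49-fold at 1.86 CPM in the control. Ch25h was at 0 reads in all 4 libraries.

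The elongases work with partner enzymes, of which 3 of 5 fell and 2 did not pass (median -0.25). Hsd17b12, the reductase of the elongation cycle, fell 1.52-fold from 107 ± 1.45 to 70.7 ± 3.88 CPM, and the dehydratase genes Hacd1 and Hacd2 fell 1.35-fold and 1.19-fold. Among 14 genes of lipogenic supply and control, 6 rose (42.9%) and 7 fell (50%), with a median of -0.14. Mid1ip1, which promotes acetyl-CoA carboxylase activity, fell 1.78-fold, and Me1, a source of NADPH, rose 1.49-fold. The catalytic subunits of AMP-activated protein kinase, which inhibits both carboxylation and sterol synthesis, parted, with Prkaa1 down 1.39-fold and Prkaa2 up 1.56-fold.

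Markers of the labelled cell type and of others moved between the groups. Their counts too are to be read beside the 24.8% of all genes tested that were higher and the 27.3% that were lower. All 10 astrocyte markers were detected at over 1 CPM in the control, and their sum went from 9602 to 9854 CPM in the control to 6560 to 7303 CPM in the Phf8 shRNA libraries, with 3 members higher and 6 lower. Gfap fell from 3971 ± 152 to 1172 ± 208 CPM, about as much as the mean sum, which went from 9728 to 6932 CPM. The sum of the other markers changed little because opposite changes offset each other. The largest of these were falls of Aqp4 and Aldoc and rises of Slc1a2 and Glul. Aqp4 fell from 1337 ± 20.0 to 532 ± 71.3 CPM. Slc1a2, a glutamate transporter gene, moved most in the list and rose 7.20-fold, from 135 ± 0.284 to 975 ± 9.64 CPM. Glul, the glutamine synthetase gene, and Gja1, which encodes a gap junction protein, rose 2.22-fold and 1.27-fold. Aldoc fell 1.84-fold, from 1140 ± 48.2 to 619 ± 63.5 CPM, and Sox9, S100b and Aldh1l1 fell by 24.4%, 19.9% and 19.5%. Slc1a3 did not pass, at 1813 ± 11.1 and 1864 ± 85.0 CPM. In Phf8 shRNA replicate 2, 9 of the 10 astrocyte markers stood lower than in replicate 1. That order also held for 13 of 14 genes of lipogenic supply and control and 9 of 11 non-sterol isoprenoid enzymes. It held for 8 of 13 oligodendrocyte lineage markers, 4 of 8 tested neuron markers and 11275 of the 21042 genes tested.

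Oligodendrocyte lineage cells, whose myelin is rich in sterol and very long chain lipids, have markers that moved up. Of 13 such markers, 12 rose (92.3%, against 24.8% of all genes tested) and 1 did not pass, with a median of 1.13. Their sum went from 756 to 803 CPM in the control to 1297 to 1344 CPM in the Phf8 shRNA libraries. Olig1 and Olig2 rose 1.26-fold and 1.38-fold, and Gpr17 rose 3.21-fold. Of 10 neuron markers, 8 passed the filter and 7 of these rose (Map2 1.51-fold, Dcx 1.87-fold and Syt1 2.32-fold), the sum running from 1156 to 1196 CPM in the control and from 1896 to 1901 CPM in the Phf8 shRNA libraries. Stmn2 and Slc17a6 had at most 17 reads in a group.

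Of 9 microglia markers, 5 passed the filter, and 2 of these fell (40% called, against 52.1% of all genes tested). Cd68 fell from 5.54 ± 0.421 to 2.49 ± 0.172 CPM, and Adgre1 went from 50 reads in the control to 2 reads. P2ry12 and Csf1r, at 2.45 and 0.332 CPM in the control, did not pass. Their sum ran from 8.92 to 9.63 CPM in the control and from 6.08 to 6.18 CPM in the Phf8 shRNA libraries. Tmem119, Itgam and Ptprc had at most 2 reads in a group. Among 10 markers of endothelial and mural cells, 8 were tested, 1 rose (12.5%) and 4 fell (50%), with a median of -1.47. Together 62.5% were called, against 52.1% of all genes tested. The sum of that list ran from 70.5 to 75.4 CPM in the control and from 70.8 to 76.0 CPM in the Phf8 shRNA libraries, and Cdh5 was at 0 in all libraries. The sum was carried by Cspg4, which stands in the oligodendrocyte list too and did not pass (45.1 ± 3.33 and 47.3 ± 3.20 CPM), and by Pdgfrb, which rose 2.51-fold. Acta2 fell 20.6-fold from 8.81 ± 0.710 CPM, Kdr 9.64-fold and Rgs5 5.18-fold, and Kcnj8 went from 132 reads in the control to 4 reads. The part of these markers in the changes of the sterol and fatty acid genes was not tested.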

How the data were processed

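RNA-seq of 4 libraries was analysed, 2 per group, grouped by the sample titles. The deposited files give, per gene, a whole-number count of reads, read as a raw count because the totals differ between libraries. HISAT2, HTSeq, DESeq2 and the mm10 build are named in the submitters' processing notes. Tool versions, strand setting and annotation release: not given in the sources used here. Symbols were found for 55154 identifiers. A symbol with several identifiers went to the one with the most reads. Exonic lengths, overlaps and transcript words of 50 bases came from GENCODE M21 (mm10), and promoters from RefSeq (GRCm38.p6).

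The main test was edgeR 4.0.16 (quasi-likelihood, two-sided, R 4.3.3) fitted to the deposited counts of both groups with no covariate, with filterByExpr, TMM (factors 0.967 to 1.02) and an adjusted p under 0.05. The test was also run on simulated counts with 50 genes changed at each fold. It recovered 28 of them at 1.25-fold, 40 at 1.5-fold and 49 at 2-fold. Of the 20633 genes tested there, 7 unchanged ones were called. The simulation changed far fewer genes than were called here. Depth was 36839530 to 44724759 reads per library. Alternatives were DESeq2 1.42.0, limma-voom (limma 3.58.1), 3 other scalings, a block for the replicate number, 2 other filters, fits without each library in turn, a fit without mitochondrial genes and the 20 genes of highest abundance, a preset biological coefficient of variation of 0.2 and an adjusted p under 0.01.

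The 40 members and the lists were chosen with earlier results of these data known. Genes named were all members, Phf8, from each pathway list up to 4 called genes of smallest p, and from each marker list the 3 tested genes of highest CPM. Other genes were named after their values were seen. One gene that this rule names is not reported here.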

Additional observations from a re-analysis of the deposited data

How the results depend on the processing

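Of the 28 members called, 24 kept their call and direction under every alternative except the preset variation, and Acss2, Dhcr7, Idi1 and Scap lost it under at least 1. Of the 12 members not called, 9 passed under at least 1 (Acaca, Acat2, Elovl5, Fasn, Lss, Mvd, Scd2, Srebf2 and Tm7sf2). With a biological coefficient of variation of 0.2, 1262 genes were higher and 2043 lower, 0 sterol branch enzymes were higher and 3 lower, 1 fatty acid branch enzyme was higher and 1 lower, and 5 of the 28 members were still called. Sterol branch enzymes called higher numbered 4 under upper-quartile scaling, 2 with a CPM of at least 1 in 2 libraries, 0 in DESeq2, and 0 to 2 when 1 library was left out. Fatty acid branch enzymes called lower numbered 5 with the library size alone. The sterol branch median ran from -0.43 (without Phf8 shRNA replicate 1) to -0.24 (without Phf8 shRNA replicate 2) when 1 library was left out. The fatty acid branch median ran from 0.034 to 0.14 (without Phf8 shRNA replicate 2) likewise, was 0.15 under upper-quartile scaling, and was 0.00418 without mitochondrial and the 20 most abundant genes, which include Scd2.

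Members that were not called changed sign, without passing, in 10 instances. Under upper-quartile scaling Sc5d was at 0.068, Srebf2 at 0.011 and Elovl5 at 0.00576. Elovl6 was at -0.045 with the library size alone and -0.00443 with no low-count filter. When 1 library was left out, Sc5d ran from -0.086 to 0.058, Acat2 from -0.015 to 0.15, Acacb from -0.36 to 0.13 and Elovl6 from -0.033 to 0.044. The causes were not tested.

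With the replicate number as a block, 5202 genes were higher and 5727 lower, 12 sterol branch enzymes were lower and 1 higher, and 5 fatty acid branch enzymes were higher and 3 lower, as without the block. The sample titles link libraries of the same number only by that number. Over all genes tested the correlation of their deviations was -0.001, which does not describe single genes or lists. A batch shared by them was not tested. Depth limited Acacb, with 100 control and 90 Phf8 shRNA reads.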

Other observations

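Fatty acid oxidation, the route opposite to synthesis, had 13 genes tested, of which 2 rose (15.4%), 5 fell (38.5%) and 6 did not pass, with a median log2 fold change of -0.07. Together 53.8% were called, near the 52.1% of all genes tested. Cpt2, which releases acyl groups inside mitochondria, fell 1.92-fold from 17.1 ± 0.425 to 8.81 ± 2.22 CPM. Acadl, an acyl-CoA dehydrogenase gene, fell 1.28-fold. Ppara, a nuclear receptor that drives oxidation genes, rose 2.20-fold at a low level, from 1.77 ± 0.0141 to 3.89 ± 0.0785 CPM. Hadha and Hadhb, the subunits of the trifunctional protein, had log2 fold changes of 0.09 and 0.09 and did not pass. The acyl-CoA synthetase genes, which activate fatty acids, were named after their values were seen. Acsl1, Acsl3 and Acsl6 rose 1.19-fold, 1.29-fold and 1.24-fold, and Acsl4 and Acsl5 fell 1.40-fold and 1.60-fold.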
